A study of Mus musculus with 22 samples.

Results

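Bone marrow mesenchymal stem cells (MSC) of 2 genotypes were compared for how their transcriptomes differed after co-culture with leukaemia cells. The 16 MSC libraries of a series of 22 RNA-seq libraries were taken, by the names of their count columns, and fitted together. KO_MSC_AML (n = 3) holds Lama4-/- MSC sorted out of a co-culture with acute myeloid leukaemia (AML) cells that carry MLL-AF9, and KO_MSC (n = 4) holds Lama4-/- MSC grown alone. WT_MSC_AML (n = 5) and WT_MSC (n = 4) are the same conditions for wild type MSC. All MSC came from C57BL/6J mice aged 10 to 14 weeks and had been expanded in culture from sorted marrow cells. In KO_MSC_AML and WT_MSC_AML, the MSC were plated 24 h before AML cells were added for 48 h, with 30000 cells per well. Nothing in the labels ties replicates to separate animals or cultures, so the p-values measure the spread between these libraries, which may be technical.

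MSC are stromal cells that line marrow vessels and bone, deposit extracellular matrix and supply blood stem cells with factors such as Cxcl12. Lama4 encodes the laminin α4 chain, a part of the laminin trimers found in the basement membranes of blood vessels and marrow stroma, which cells bind through integrins. MLL-AF9 is a fusion protein that turns blood progenitors into an aggressive leukaemia, and the leukaemia cells grow in contact with the stroma.

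The quantity described is an interaction: the log2 fold change of KO_MSC_AML over KO_MSC (the KO difference) minus the log2 fold change of WT_MSC_AML over WT_MSC (the WT difference). It is positive where co-culture went with a larger increase, or a smaller decrease, in KO than in WT MSC. Levels are counts scaled to library size (CPM), and each gene was tested with edgeR's quasi-likelihood test with Benjamini-Hochberg adjustment over all genes tested.

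Total counts ran from 14455817 to 16207629 in KO_MSC_AML, 15595872 to 18930208 in KO_MSC, 17961146 to 22204798 in WT_MSC_AML and 16202792 to 24826876 in WT_MSC. Lama4 stood at 0.0921 ± 0.108 CPM in KO_MSC_AML, 0.554 ± 0.279 CPM in KO_MSC, 234 ± 37.3 CPM in WT_MSC_AML and 309.6 ± 11 CPM in WT_MSC (SD) and separated the genotypes as labelled in all 16 libraries. Collagen and other MSC markers (9 of 9 detected) summed to between 16276 and 31250.1 CPM in each library. Among these markers, Eng, which encodes the TGF-beta co-receptor endoglin, stood at only 1.81 to 5.56 CPM in WT_MSC_AML, and Nt5e at 0.134 to 8.06 CPM in KO_MSC_AML and 0.741 to 1.3 CPM in WT_MSC_AML. The title of KO_MSC_AML replicate 3 says MSC, while its cell type label says AML. Its Ptprc, which encodes the blood cell protein CD45, stood at 0.47 CPM and its Col1a1 at 16157 CPM, and it was kept as MSC.

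The libraries also differed by sex-linked transcripts, which the groups do not balance. The 3 KO_MSC_AML libraries held Xist, the RNA of the inactive X chromosome, at 338 to 437 CPM and the Y-linked Ddx3y at no more than 0.86 CPM. In KO_MSC, replicate 3 held Xist (275 CPM) with 1.68 CPM of Ddx3y, replicate 1 held both (166 and 37.8 CPM), and replicates 2 and 4 held Ddx3y (64.2 and 58 CPM). All WT_MSC_AML libraries held Ddx3y (46.5 to 55.4 CPM). In WT_MSC, replicate 1 held Xist (212 CPM) with 0.806 CPM of Ddx3y, and replicates 2 to 4 held Ddx3y (50.1 to 56.5 CPM). Co-culture in KO MSC therefore partly coincides with a change of sex-linked transcripts, and for many genes the contributions cannot be told apart. Many lists and leading genes are therefore also given without WT_MSC replicate 1 or KO_MSC replicate 3, or within 1 class of sex-linked transcripts per genotype. That within-class fit kept KO_MSC_AML, KO_MSC replicate 3, WT_MSC_AML and WT_MSC replicates 2 to 4. Its KO_MSC arm is 1 library, assumed to vary like the other groups. Such values are not given for every list or gene, and where they are missing, stability should not be assumed.

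No gene passed the threshold for the interaction. Of 14247 genes tested, 0 had an adjusted p under 0.05 (0% called), the smallest adjusted p being 0.511 and the smallest unadjusted p 0.000129 (edgeR). An unadjusted p under 0.05 was found for 1102 genes (7.73%), of which 663 (4.65%) had a positive and 439 (3.08%) a negative interaction. DESeq2 called 29 genes (0.204%), 13 positive (0.0912%) and 16 negative (0.112%). Of its negative calls 4 were the Y-linked Kdm5d, Ddx3y, Eif2s3y and Uty. Its positive calls Clec14a, Tcfl5, Mmp13 and Heph had log2 fold changes of 19.8 to 24.9, and Clec14a averaged 0 CPM in WT_MSC_AML. Limma voom called 0 without and 1499 (10.5%) with sample quality weights, of which 897 (6.3%) were positive and 602 (4.23%) negative. The median standard error of an interaction was 0.27 on the log2 scale.

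Behind the interaction, 935 genes (6.56%) passed the threshold between KO_MSC_AML and KO_MSC, 577 higher and 358 lower, and 151 (1.06%) between WT_MSC_AML and WT_MSC, 120 higher and 31 lower (0.218%). The pair of comparisons shares no library, and 97 genes passed in both, all in the same direction. The difference between these counts was not itself tested. Among the 1102 genes with an unadjusted interaction p under 0.05, 822 had the larger absolute fold change in KO and 280 in WT. Opposite directions in KO and WT were seen for 644 of them, and 411 also passed the threshold in KO, against 12 in WT and 682 in neither. These genes were picked by a small p for the difference between KO and WT, which favours unequal or opposite changes. The counts therefore only describe the picked genes.

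**Figure D1:**
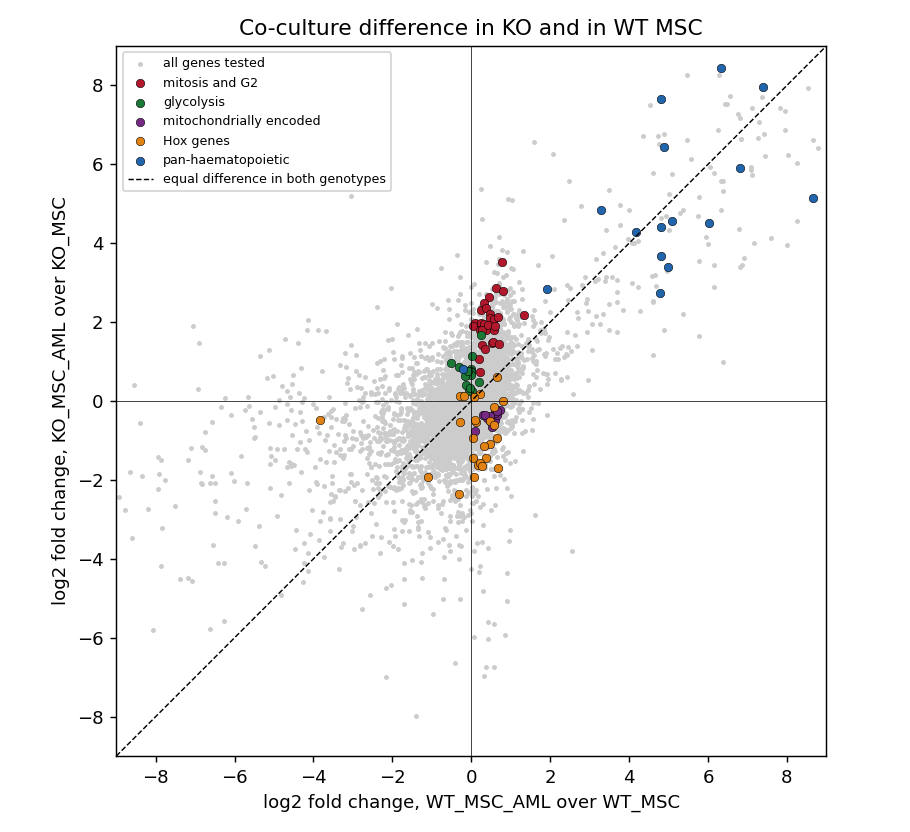
Log2 fold change of KO_MSC_AML over KO_MSC (y axis) against that of WT_MSC_AML over WT_MSC (x axis) for the genes tested, with 5 gene lists coloured and the dashed line marking equal differences; 8 genes lie outside the axes. The blood cell genes lie far up along the dashed line, the mitosis genes lie above it and the Hox and mitochondrially encoded genes mostly below it.

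Genes of mitosis and the G2 phase had the highest median interaction of the 38 gene lists. All 30 listed genes were tested and all 30 had a positive interaction, between 0.50 and 2.76, with a median of 1.55 against 0.017 over all genes. An unadjusted p under 0.05 was found for 16 of 30, all positive (4.65% of all genes tested were), and for 0 of 30 by limma voom without quality weights. Between KO_MSC_AML and KO_MSC, 14 of the 30 rose (4.05% of all genes tested rose) and the median log2 fold change was 1.93. Between WT_MSC_AML and WT_MSC none passed and the median was 0.40. The Ccna2, Bub1, Kif23, Aspm and Ube2c genes described next were all among the 16.

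Bub1 encodes a kinase of the spindle checkpoint, which holds chromosome separation until every chromosome is attached. Bub1 stood at 6.38, 3.9 and 10 CPM in KO_MSC_AML, against 1.07, 0.331, 0.465 and 0.437 CPM in KO_MSC. It stood at 18.7, 18.8, 9.28, 21.9 and 18.3 CPM in WT_MSC_AML, against 1.56, 16.2, 11.9 and 11.2 CPM in WT_MSC. Every KO_MSC_AML library lay above every KO_MSC library, while the WT groups overlapped, and WT_MSC replicate 1 lay far below the other WT_MSC libraries. The interaction of Bub1 was 2.76 ± 0.79 (SE; 95% interval 1.07 to 4.46; unadjusted p = 0.00342, adjusted p = 0.529, edgeR). The KO difference was 3.53 (adjusted p = 0.0122) and the WT difference 0.77 (adjusted p = 0.386).

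Ccna2 encodes cyclin A2, which drives the S and G2 phases with the cyclin-dependent kinases. Its levels were 17.7, 10.5 and 22.6 CPM in KO_MSC_AML and 1.79, 1.65, 3.66 and 2.18 CPM in KO_MSC. They were 44.9, 53.3, 26.9, 53.8 and 46.5 CPM in WT_MSC_AML and 3.98, 46.8, 32.9 and 33.5 CPM in WT_MSC. The interaction of Ccna2 was 2.24 ± 0.75 (unadjusted p = 0.00948, adjusted p = 0.537). Mki67, which encodes the proliferation marker Ki-67, showed the same order of groups, at 38.2 ± 15.8 CPM in KO_MSC_AML, 5.53 ± 2.34 CPM in KO_MSC, 135 ± 37.1 CPM in WT_MSC_AML and 76.5 ± 46 CPM in WT_MSC, with an interaction of 1.97 ± 0.79 (adjusted p = 0.578). The within-class interactions of Bub1, Ccna2 and Mki67 were 3.44, 1.95 and 1.74 (adjusted p = 0.984, 1 and 1). KO_MSC libraries held the lowest levels of these 3 genes, with WT_MSC replicate 1 next. For Bub1, KO_MSC_AML lay below WT_MSC_AML apart from 1 overlap, replicate 3 of KO_MSC_AML (10 CPM) against replicate 3 of WT_MSC_AML (9.28 CPM).

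The summed level of the 30 genes gives the same picture by library. It was 434, 279 and 601 CPM in KO_MSC_AML and 157, 97, 136 and 79.2 CPM in KO_MSC. It was 1264, 1376, 791, 1418 and 1289.7 CPM in WT_MSC_AML and 156, 1313, 1068 and 1119.8 CPM in WT_MSC. WT_MSC replicate 1 had a sum within the KO_MSC range although its Lama4, at 314 CPM, was that of a WT library. Without WT_MSC replicate 1, 6 of the 30 genes passed the threshold for the interaction, all as positive (0.0705% of all genes tested were). All 30 had an unadjusted p under 0.05, and the median was 1.91. Without KO_MSC replicate 3 as well, 18 of 30 passed, all as positive (2.5% of all genes tested were). Within 1 sex-linked class per genotype, where KO_MSC is 1 library, the median was 1.73. Without KO_MSC_AML replicate 3, the library with the highest KO sum, 5 of 30 had an unadjusted p under 0.05 and the median was 1.27. Over 31 alternatives the median lay between 1.20 and 2.68. With only genes lower in AML cells than in MSC alone, the list had no member left, so that setting could not assess it.

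**Figure D2:**
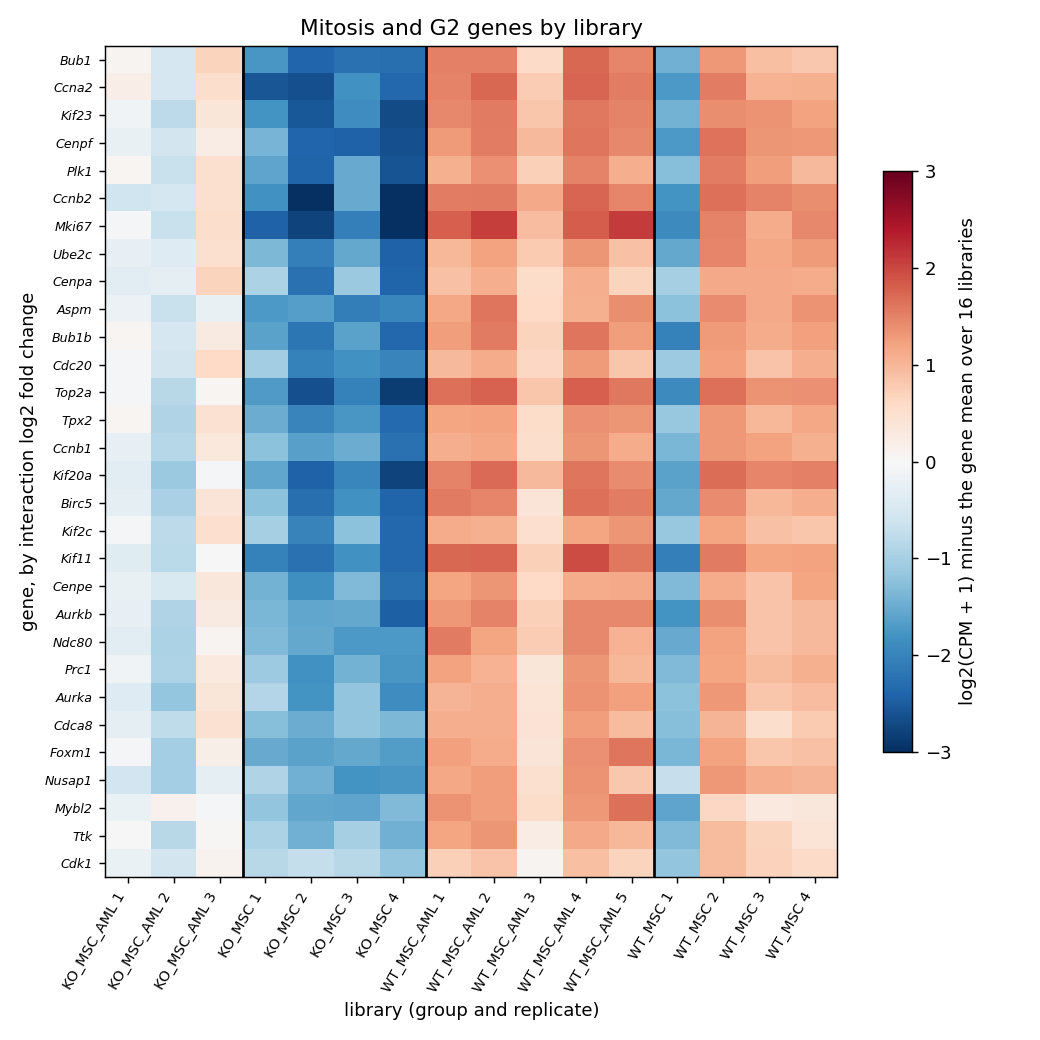
Level of each of the 30 mitosis and G2 genes (rows, by interaction) in each MSC library (columns, by group and replicate), as log2(CPM + 1) minus the gene's mean over the 16 libraries. KO_MSC libraries and WT_MSC replicate 1 are the low columns, KO_MSC_AML libraries are intermediate, and the other WT libraries are high.

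These genes are also expressed by dividing AML cells, whose RNA was detectable in the co-cultured MSC. Mean levels in the AML cell libraries were 90 CPM for Bub1, 201 CPM for Ccna2 and 534 CPM for Mki67. The share of AML RNA, read from 72 transcripts at 100 CPM or more in AML cells and under 1 CPM in MSC grown alone, was 1.01 ± 0.619% in KO_MSC_AML (n = 3) and 1.54 ± 0.945% in WT_MSC_AML (n = 5), a difference of −0.532 percentage points (two-sided exact permutation p = 0.5, smallest possible 0.0179). That difference was −0.129 without WT_MSC_AML replicate 2, −0.291 without KO_MSC_AML replicate 1 and −0.881 without KO_MSC_AML replicate 2. With that share as a covariate the median interaction of the list was 1.57 and 12 of 30 had an unadjusted p under 0.05. In bulk RNA, fewer dividing cells and less of these transcripts per cell cannot be told apart.

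With all libraries, genes of DNA replication and the S phase had a lower median interaction than the mitotic genes. Their median interaction was 0.03 over 30 genes, and 15 of 30 were positive. Of the 30, 1, Tk1, had an unadjusted p under 0.05 (7.73% of all genes tested did). Their median difference was 0.69 in KO and 0.60 in WT. In KO 5 of 30 rose (4.05% of all genes tested rose there), and in WT none did (0.842% of all genes tested rose there). Mcm5, a subunit of the replicative helicase, stood at 16, 14 and 17.7 CPM in KO_MSC_AML and 3.81, 3.17, 2.21 and 2.62 CPM in KO_MSC. It stood at 69.6, 80.2, 33.5, 81.1 and 57.2 CPM in WT_MSC_AML and 4.17, 51.6, 40.8 and 34.9 CPM in WT_MSC. Its interaction was 1.46 ± 0.73 (adjusted p = 0.672), and AML cells held 469 CPM. The within-class interaction of Mcm5 was 2.245. Without WT_MSC replicate 1 and KO_MSC replicate 3, 2 of the 30 genes passed the threshold, both as positive (2.5% of all genes tested were). These were Tk1 at 2.17 (adjusted p = 0.0402) and Mcm5 at 1.71 (adjusted p = 0.0247). Whether the mitotic and the replication list differ from each other was not tested.

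Promoters of mitotic genes often carry a CCAAT box, bound by NF-Y, and the cell cycle element CHR (TTTGAA), bound by the DREAM and MuvB complexes. The 250 bases before the first start listed for a gene, from RefSeq on GRCm38.p6, were searched on both strands. Such a window was available for 25 of the 30 listed genes and 10741 of the 14247 genes tested. It can lie inside the gene's full span, as it did wholly for Aspm and partly for Kif23. CCAAT was found in 20 of 25 windows (80%), against 3948 of 10741 (36.8%), and TTTGAA in 8 of 25 (32%), against 1137 (10.6%). Both were found in 7 of 25 (28%), against 455 (4.24%). The windows of Bub1 (chr2:127831860-127832109, minus strand), Kif23 (chr9:61946800-61947049, minus strand), Aspm (chr1:139454523-139454772, plus strand) and Ube2c (chr2:164769679-164769928, plus strand) are printed 5′ to 3′ because these genes were among those called without WT_MSC replicate 1. Capitals mark CCAAT, its reverse complement ATTGG, or the reverse complement TTCAAA of the CHR, and in Ube2c 1 CCAAT and 1 ATTGG share letters. A match of letters does not show that a factor bound there.
Bub1: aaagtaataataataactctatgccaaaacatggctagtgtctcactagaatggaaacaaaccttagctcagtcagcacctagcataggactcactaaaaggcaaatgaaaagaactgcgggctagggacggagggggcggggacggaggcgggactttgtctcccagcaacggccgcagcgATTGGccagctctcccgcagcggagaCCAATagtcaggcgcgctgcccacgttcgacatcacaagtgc
Kif23: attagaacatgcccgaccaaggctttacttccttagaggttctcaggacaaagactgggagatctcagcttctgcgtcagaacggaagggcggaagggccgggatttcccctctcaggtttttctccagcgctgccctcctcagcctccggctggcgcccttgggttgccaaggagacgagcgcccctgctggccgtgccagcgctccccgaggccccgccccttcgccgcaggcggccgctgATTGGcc
Aspm: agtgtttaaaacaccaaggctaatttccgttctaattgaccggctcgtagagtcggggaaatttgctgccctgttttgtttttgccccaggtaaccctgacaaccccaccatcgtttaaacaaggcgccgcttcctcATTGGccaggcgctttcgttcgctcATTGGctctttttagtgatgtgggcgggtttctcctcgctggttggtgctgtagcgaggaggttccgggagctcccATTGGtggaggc
Ube2c: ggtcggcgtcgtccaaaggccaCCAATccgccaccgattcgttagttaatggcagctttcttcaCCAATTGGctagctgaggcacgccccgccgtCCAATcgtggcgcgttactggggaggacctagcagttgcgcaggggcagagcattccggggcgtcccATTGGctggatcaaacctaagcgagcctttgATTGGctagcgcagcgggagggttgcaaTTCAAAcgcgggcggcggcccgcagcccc

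Glycolytic genes, which break glucose down to pyruvate and lactate, rose in part between KO_MSC_AML and KO_MSC, where 8 of 17 passed. All 17 had a positive interaction, with a median of 0.76, and 11 had an unadjusted p under 0.05 (4.65% of all genes tested were positive at that p). Between KO_MSC_AML and KO_MSC, 8 of the 17 rose (4.05% of all genes tested rose), with a list median of 0.74, and between WT_MSC_AML and WT_MSC none passed, with a median of −0.02. The genes that rose in KO were Slc16a3, Pdk1, Gapdh, Tpi1, Eno1, Aldoa, Pgk1 and Gpi1, which cover lactate export, the pyruvate dehydrogenase switch and 6 enzymes of the glycolytic chain.

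Slc16a3 encodes the lactate exporter MCT4. Its levels were 93.6, 66.5 and 154 CPM in KO_MSC_AML and 26.9, 30.3, 46.7 and 28 CPM in KO_MSC. They were 79.4, 73.1, 56.2, 77.9 and 55.7 CPM in WT_MSC_AML and 68.2, 55.5, 56.6 and 49.4 CPM in WT_MSC. The KO groups did not overlap and the WT groups did. Its interaction was 1.41 ± 0.33 (95% interval 0.71 to 2.12; adjusted p = 0.529), with a KO difference of 1.67 (adjusted p = 0.00676) and a WT difference of 0.25 (adjusted p = 0.546). The interaction was 0.81 within 1 sex-linked class per genotype (adjusted p = 1).

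Slc2a1 encodes the glucose transporter GLUT1. It stood at 63.3, 44.5 and 88.5 CPM in KO_MSC_AML and 38.6, 33.1, 33.8 and 28.3 CPM in KO_MSC. It stood at 27, 27.4, 26.7, 29.1 and 21.5 CPM in WT_MSC_AML and 65, 32.2, 26.7 and 25.8 CPM in WT_MSC, of which replicate 1 was the high library. Its interaction was 1.48 ± 0.38 (adjusted p = 0.529), 1.07 without WT_MSC replicate 1 (adjusted p = 0.138) and 1.06 within 1 sex-linked class per genotype (adjusted p = 1). The KO difference of Slc2a1, 0.97, had an adjusted p of 0.0524. Gys1, which encodes muscle-type glycogen synthase, averaged 130.1 ± 14.9 CPM in KO_MSC_AML, 82.6 ± 8.74 CPM in KO_MSC, 85.9 ± 3.46 CPM in WT_MSC_AML and 87.5 ± 10.8 CPM in WT_MSC. The interaction of Gys1 was 0.68 ± 0.15 (adjusted p = 0.529), and 0.46 within 1 sex-linked class per genotype.

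Many glycolytic genes are targets of the hypoxia factor HIF-1. The hypoxia response list had a median of 0.42 over 15 genes. An unadjusted p under 0.05 was found for 4, all positive (4.65% of all genes tested were). Egln3, an oxygen sensor that marks HIF for degradation and is itself a HIF target, rose in KO_MSC_AML to 20.5, 19.5 and 33 CPM, against 7.07, 7.01, 11 and 9.72 CPM in KO_MSC. It stood at 6.82, 6.73, 4.1, 6.54 and 3.92 CPM in WT_MSC_AML, against 12, 4.72, 4.07 and 3.71 CPM in WT_MSC. Its interaction was 1.61 ± 0.49 (adjusted p = 0.529), 1.06 without WT_MSC replicate 1 (adjusted p = 0.283) and 0.72 within 1 sex-linked class per genotype. P4ha1, a collagen prolyl hydroxylase subunit, had a smaller interaction, 0.93 ± 0.31 (adjusted p = 0.537). That of P4ha1 was 0.64 without WT_MSC replicate 1 (adjusted p = 0.305) and 0.38 within 1 sex-linked class per genotype. AML cells held 231 CPM of Slc16a3 and 128 CPM of Egln3, and the part of AML RNA in these levels was not tested gene by gene.

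Summed over the 17 glycolytic genes, the level was 5286, 4311 and 7423 CPM in KO_MSC_AML, against 3736, 3805, 4007 and 3607 CPM in KO_MSC. It was 4608, 4513, 4108, 4806 and 3611 CPM in WT_MSC_AML, against 5526, 4256, 4112 and 3973 CPM in WT_MSC. KO_MSC_AML replicate 3 was the highest library, and without it the list median was 0.49. Without WT_MSC replicate 1 the median was 0.63 and 10 of 17 had an unadjusted p under 0.05. Without KO_MSC replicate 3 as well, 4 of 17 passed the threshold, all as positive (2.5% of all genes tested were). Within 1 sex-linked class per genotype the median was 0.41. With the Ddx3y level as a covariate the median was 0.24, with none at an unadjusted p under 0.05.

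The hypoxia response element core ACGTG, searched on both strands of the same 250-base windows, was found in 7 of 17 glycolytic genes (41.2%), against 2331 of 10741 genes (21.7%). The windows of Slc16a3 (chr11:120948817-120949066, plus strand) and Slc2a1 (chr4:119108495-119108744, plus strand), the glycolytic genes with the smallest interaction p, are printed with ACGTG in capitals. That of Slc16a3 lay inside the gene's full span.
Slc16a3: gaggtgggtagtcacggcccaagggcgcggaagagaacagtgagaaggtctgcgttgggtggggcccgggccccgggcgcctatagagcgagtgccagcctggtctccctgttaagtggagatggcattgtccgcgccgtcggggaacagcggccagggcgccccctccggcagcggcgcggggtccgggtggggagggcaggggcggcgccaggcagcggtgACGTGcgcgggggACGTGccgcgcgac
Slc2a1: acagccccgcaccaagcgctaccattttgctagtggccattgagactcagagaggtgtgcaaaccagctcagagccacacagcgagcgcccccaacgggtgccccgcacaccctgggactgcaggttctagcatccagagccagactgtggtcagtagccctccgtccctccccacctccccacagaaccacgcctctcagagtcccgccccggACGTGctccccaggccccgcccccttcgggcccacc

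**Figure D3:**
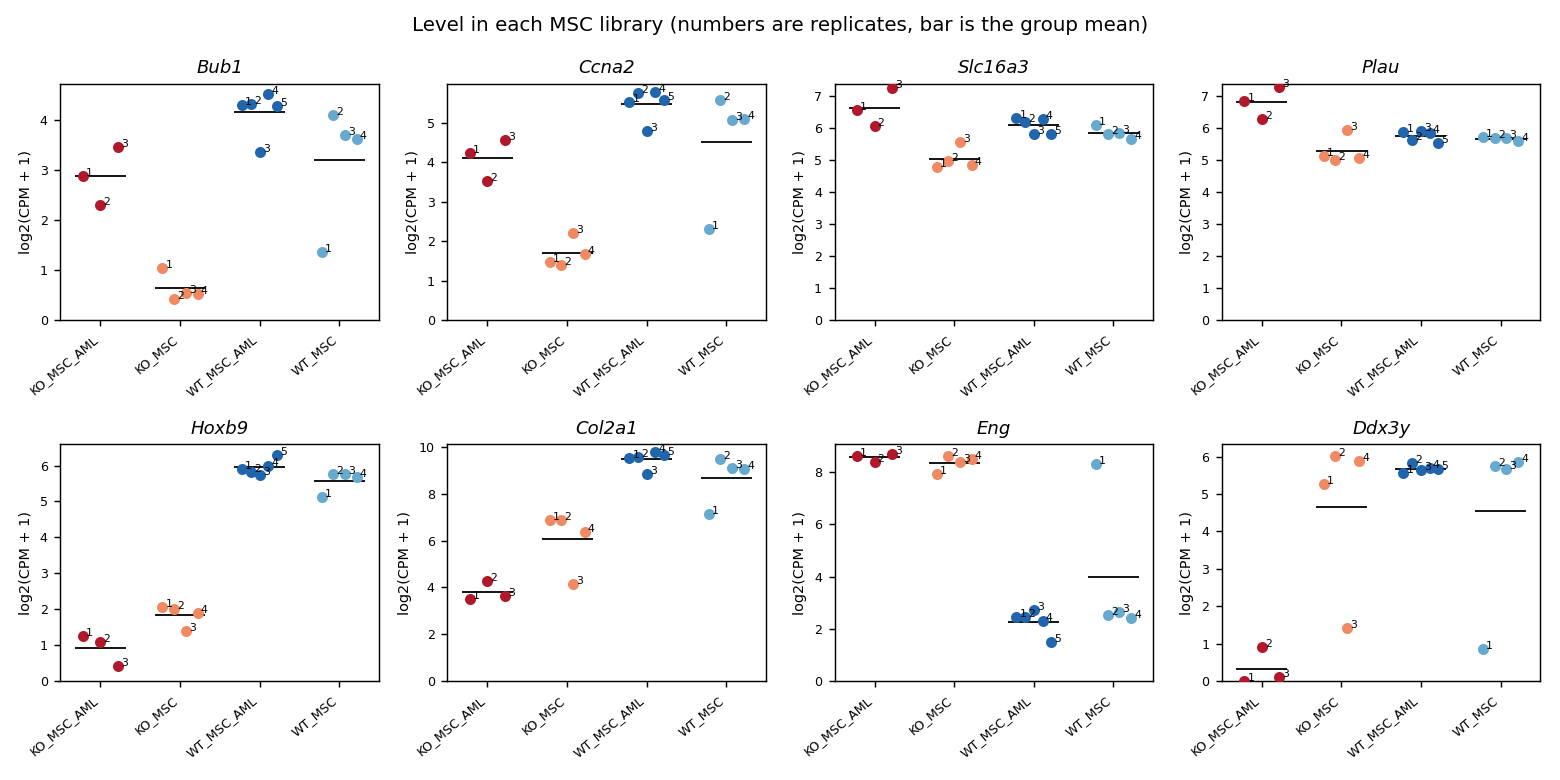
Level of 8 genes in each MSC library as log2(CPM + 1), with points numbered by replicate and bars at the group mean. Bub1, Ccna2, Slc16a3 and Plau differ between the KO groups, Hoxb9 and Col2a1 are lower in KO_MSC_AML than in KO_MSC, and Eng and Ddx3y show WT_MSC replicate 1 away from the other WT_MSC libraries.

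By unadjusted p among genes whose log2 CPM averaged 3 or more, the leading positive interactions were those of Dysf, Plau, Gys1, Il4ra, Slc16a3, Hoxc12, Lmo7, Tes, Tspan9 and Slc2a1. None passed the threshold, with adjusted p-values of 0.511 for Dysf and Plau and 0.529 for the other 8. Dysf encodes dysferlin, a membrane repair protein, and stood at 111, 82.5 and 102 CPM in KO_MSC_AML, against 49.1, 42.5, 68.5 and 40.4 CPM in KO_MSC. It stood at 69.3, 84.8, 73.4, 78.6 and 75.4 CPM in WT_MSC_AML, against 76.5, 79.5, 78.6 and 77.7 CPM in WT_MSC. All 4 KO_MSC libraries lay below every WT library, KO_MSC_AML lay at or above the upper end of the WT libraries, and the WT groups overlapped. The interaction of Dysf was 1.01 ± 0.20 (95% interval 0.58 to 1.43). It was 1.20 without WT_MSC replicate 1 and KO_MSC replicate 3 (adjusted p = 0.000553) and 0.56 within 1 sex-linked class per genotype (adjusted p = 1).

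Plau encodes urokinase, a secreted protease that activates plasminogen in the matrix. Its levels were 116, 77.3 and 155 CPM in KO_MSC_AML and 34, 31.2, 60.5 and 32.7 CPM in KO_MSC. They were 57.8, 48.3, 59.4, 57.2 and 45.4 CPM in WT_MSC_AML and 51.6, 51, 50.8 and 47.4 CPM in WT_MSC. The highest KO_MSC value, 60.5 CPM, was that of replicate 3, which also held Xist. The interaction of Plau was 1.45 ± 0.30 (95% interval 0.81 to 2.10), 1.74 without KO_MSC replicate 3 (adjusted p = 0.0047) and 0.83 within 1 sex-linked class per genotype (adjusted p = 1). DESeq2 called Plau (adjusted p = 0.0061) and Dysf (adjusted p = 0.0061).

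Il4ra encodes the interleukin-4 receptor alpha chain. Its levels averaged 178 ± 36.8 CPM in KO_MSC_AML, 97.2 ± 17 CPM in KO_MSC, 77.2 ± 10 CPM in WT_MSC_AML and 107 ± 42.9 CPM in WT_MSC, where replicate 1 was high at 172 CPM. The interaction of Il4ra was 1.35 ± 0.31, and 1.025 without WT_MSC replicate 1 (adjusted p = 0.0806). Lmo7, Tes and Tspan9, which encode a pair of actin-associated LIM domain proteins and a tetraspanin, rose in KO_MSC_AML against KO_MSC with log2 fold changes of 1.08, 1.14 and 0.68 (adjusted p = 0.00954, 0.0162 and 0.0177). Their WT differences were 0.04, −0.13 and −0.08 (adjusted p = 0.916, 0.752 and 0.755). Hoxc12, a posterior Hox gene, averaged 26.7 ± 3.54 CPM in KO_MSC_AML, 15.2 ± 3.36 CPM in KO_MSC, 7.73 ± 1.18 CPM in WT_MSC_AML and 8.62 ± 0.959 CPM in WT_MSC. In the within-class fit the interactions of Il4ra, Lmo7, Tes, Tspan9 and Hoxc12 were 0.70, 0.59, 0.61, 0.35 and 0.47 (adjusted p = 1 each).

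The leading negative interactions were those of Adcy2, Fam171a1, Hoxb9, Msx2, Kdm5d, Sh2d4a, Col2a1, Ddx3y, Rgs2 and Podxl2, with adjusted p-values of 0.511 for Adcy2 and 0.529 for the others. Kdm5d and Ddx3y are Y-linked and follow the sex-linked classes described above. Adcy2, an adenylyl cyclase that makes cyclic AMP, stood at 0.911, 0.993 and 0 CPM in KO_MSC_AML and 30.3, 22.7, 3.66 and 26 CPM in KO_MSC. It stood at 11.6, 13, 15, 11.2 and 8.72 CPM in WT_MSC_AML and 16, 18.9, 21.2 and 22.5 CPM in WT_MSC. The groups did not overlap in either genotype, although the WT difference did not pass (−0.72, adjusted p = 0.409), and within KO_MSC replicate 3 lay nearest to KO_MSC_AML. Both KO_MSC replicates 1 and 3 held Xist, and replicate 1 had the highest Adcy2 level. The interaction of Adcy2 was −4.29 ± 0.86 (95% interval −6.13 to −2.45), −4.64 without KO_MSC replicate 3 (adjusted p = 0.00313) and −1.71 within 1 sex-linked class per genotype (adjusted p = 1).

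Col2a1 encodes the cartilage collagen and Msx2 a homeobox factor of the osteoblast lineage. Col2a1 stood at 10.4, 18.3 and 11.5 CPM in KO_MSC_AML and 118, 118, 16.8 and 81.5 CPM in KO_MSC. It stood at 735, 774, 462, 898 and 818 CPM in WT_MSC_AML and 141, 733, 550.2 and 532 CPM in WT_MSC. KO_MSC replicate 3 lay within the range of KO_MSC_AML, and WT_MSC replicate 1 was nearer to KO_MSC than to the other WT_MSC libraries. The interaction of Col2a1 was −3.23 ± 0.78, and −0.62 within 1 sex-linked class per genotype (adjusted p = 1). That of Msx2 was −1.83 ± 0.43, and −0.42 within 1 class (adjusted p = 1), with 2.52 ± 0.897 CPM in KO_MSC_AML, 6.91 ± 2.72 CPM in KO_MSC, 27.8 ± 1.85 CPM in WT_MSC_AML and 21.4 ± 5.31 CPM in WT_MSC.

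Rgs2, a brake on G protein signalling, was lower in KO_MSC_AML than in KO_MSC (log2 fold change −1.51, adjusted p = 0.035), at 6.03, 9.53 and 7.05 CPM against 30.1, 16.6, 13.1 and 26.3 CPM. It stood at 26.6, 28.9, 29.6, 20 and 23.9 CPM in WT_MSC_AML and 6.68, 17.6, 24.8 and 25.7 CPM in WT_MSC. Podxl2, which encodes endoglycan, a sialomucin of the podocalyxin family, averaged 12.4 ± 4.75 CPM in KO_MSC_AML and 32.1 ± 9.16 CPM in KO_MSC, against 21.5 ± 2.73 CPM in WT_MSC_AML and 22.8 ± 2.98 CPM in WT_MSC. In the within-class fit the interaction of Rgs2 was −0.98, against −1.98 in all libraries, and that of Podxl2 −0.63, against −1.28 (adjusted p = 1 within the class for both). Fam171a1 had the smallest standard error of these 10 genes, with an interaction of −0.62 ± 0.13 (95% interval −0.90 to −0.34). Within 1 sex-linked class per genotype that of Fam171a1 was −0.39. Sh2d4a had an interaction of −1.51 ± 0.37, and −1.36 within 1 class.

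Hox genes, the homeobox factors that record a cell's position along the body axis, had the lowest median of the lists apart from the sex-linked genes. Of 31 listed genes 26 were tested, 22 of them had a negative interaction, and the median was −0.98. An unadjusted p under 0.05 was found for 9, all negative (3.08% of all genes tested were). Between KO_MSC_AML and KO_MSC, Hoxb9, Hoxd8, Hoxc10 and Hoxc6 fell (2.51% of all genes tested fell), and between WT_MSC_AML and WT_MSC none passed. Hoxc12, which is not on the list, rose in KO as given above.

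Hoxb9 stood at 1.4, 1.13 and 0.336 CPM in KO_MSC_AML and 3.14, 2.98, 1.63 and 2.73 CPM in KO_MSC. It stood at 58.8, 55.9, 52, 62.5 and 77.6 CPM in WT_MSC_AML and 33.8, 53.3, 53.7 and 50.2 CPM in WT_MSC. Its level separated the genotypes more than the culture conditions, and WT_MSC replicate 1 stayed among the WT libraries for it. The interaction of Hoxb9 was −1.82 ± 0.41 (adjusted p = 0.529), −1.98 without KO_MSC replicate 3 (adjusted p = 0.0373) and −1.003 within 1 sex-linked class per genotype (adjusted p = 1). Summed over the list, Hox levels were 111, 147 and 109.8 CPM in KO_MSC_AML and 187, 231, 158 and 229.5 CPM in KO_MSC. They were 382, 363, 395, 364 and 474 CPM in WT_MSC_AML and 302, 378, 383 and 386 CPM in WT_MSC. Within 1 sex-linked class per genotype the list median was −0.44, and without KO_MSC_AML replicate 3 it was −0.61.

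Basement membrane genes, the matrix layer to which laminin α4 belongs, had a median interaction of 0.71 over 20 genes, 18 of them positive and 7 with an unadjusted p under 0.05 and a positive sign (4.65% of all genes tested). Between the co-cultured and lone cells, 2 of 20 rose in KO, Lamb1 and Nid1 (4.05% of all genes tested rose there). In WT 1 of 20 fell, Lamb3 (−2.43, adjusted p = 0.0277), and 0.218% of all genes tested fell there. Lamb1, the laminin β1 chain that pairs with α4, rose in KO_MSC_AML to 481, 472 and 689 CPM, against 415, 286, 355 and 283 CPM in KO_MSC (adjusted p = 0.0199). It stood at 241, 264, 224, 248 and 213 CPM in WT_MSC_AML and 258, 224, 217 and 218 CPM in WT_MSC. Its interaction was 0.66 ± 0.21 (95% interval 0.21 to 1.10; adjusted p = 0.529), and 0.51 within 1 sex-linked class per genotype (adjusted p = 1). Nid1, which encodes the laminin-binding nidogen-1, also rose in KO (0.87, adjusted p = 0.0428), and had an interaction of 0.70 ± 0.32. Without WT_MSC replicate 1 the list median was 0.47. Without KO_MSC replicate 3 it was 0.88, 12 of 20 had an unadjusted p under 0.05 and 2 passed the threshold as positive (0.345% of all genes tested were). Within 1 sex-linked class per genotype it was 0.05, with 0 of 20 at an unadjusted p under 0.05.

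Among 15 laminin receptors the median was 0.50 and 3 had an unadjusted p under 0.05, all positive (4.65% of all genes tested were). Itga6, the laminin-binding integrin α6, stood at 3.71, 0.927 and 20.1 CPM in KO_MSC_AML, against 1.46, 0.0661, 0.697 and 0.273 CPM in KO_MSC, so that replicate 3 of KO_MSC_AML carried most of its mean. It stood at 1.04, 1.07, 0.432, 1.25 and 0.548 CPM in WT_MSC_AML, against 3.08, 0.634, 0.543 and 0.183 CPM in WT_MSC. Its interaction was 4.07 ± 1.34 (adjusted p = 0.537), with 24 CPM in AML cells. The interaction of Itga6 was 2.81 without WT_MSC replicate 1 (adjusted p = 0.406) and 2.67 within 1 sex-linked class per genotype.

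Several of the largest positive interactions rested on WT_MSC replicate 1. Eng stood at 393, 331 and 416 CPM in KO_MSC_AML and 239.7, 395, 330.2 and 365 CPM in KO_MSC. It stood at 4.4, 4.39, 5.56, 3.95 and 1.81 CPM in WT_MSC_AML and 317, 4.83, 5.27 and 4.32 CPM in WT_MSC. Its interaction was 4.56 ± 1.55 (adjusted p = 0.545), and 0.46 without WT_MSC replicate 1 (adjusted p = 0.635). Ereg, which encodes the EGF receptor ligand epiregulin, had an interaction of 5.77 ± 1.90, and 0.43 without that library (adjusted p = 0.834). Grem1, the BMP antagonist gremlin, had 5.17 ± 1.52, and 1.53 without it (adjusted p = 0.239). The growth factor gene Igf1 had 4.19 ± 1.57, and 0.86 without it (adjusted p = 0.736), and Timp3, an inhibitor of matrix proteases, had 2.72 ± 1.11, and 0.34 without it (adjusted p = 0.714). Each of these 5 genes stood in WT_MSC replicate 1 within or above the range of the KO_MSC libraries, and in WT_MSC replicates 2 to 4 below every KO_MSC library.

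The niche factor Cxcl12, the chemokine that holds blood stem cells in the marrow, stood at 887, 1178 and 265 CPM in KO_MSC_AML and 4488, 2075, 1051 and 2310.4 CPM in KO_MSC. It stood at 1707, 1585, 2615, 1324 and 1224 CPM in WT_MSC_AML and 622, 2041, 2462 and 2309 CPM in WT_MSC. Its interaction was −1.54 ± 0.73 (95% interval −3.10 to 0.02; adjusted p = 0.656), and −0.01 within 1 sex-linked class per genotype (adjusted p = 1). KO_MSC replicate 3 overlapped KO_MSC_AML, and WT_MSC replicate 1 lay below every WT_MSC_AML library. Of the 17 niche factors tested, 11 had a positive interaction, and the median was 0.31. Of these factors 1, Igf1, had an unadjusted p under 0.05 (7.73% of all genes tested did).

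The 13 mitochondrially encoded genes all had a negative interaction, with a median of −0.92 and 8 at an unadjusted p under 0.05 (3.08% of all genes tested were negative at that p). Within 1 sex-linked class per genotype the median was again −0.92, but 0 of 13 had an unadjusted p under 0.05, and without KO_MSC_AML replicate 3 the count was 3 of 13. They took 1.52 ± 0.0812% of counts in KO_MSC_AML and 2.63 ± 1.37% in WT_MSC_AML, a difference of −1.11 percentage points (two-sided exact permutation p = 0.179, smallest possible 0.0179). WT_MSC_AML replicate 5 held 4.99%, against 1.43 to 2.31% in the other 4 WT_MSC_AML libraries, and without it the difference was −0.524 percentage points. CYTB, which encodes cytochrome b of complex III, stood at 1853, 1710.4 and 1826 CPM in KO_MSC_AML and 2923, 2325, 2193 and 2579.7 CPM in KO_MSC. It stood at 2823, 1778, 2805, 2679 and 6405 CPM in WT_MSC_AML and 2485, 1935, 2015 and 2245 CPM in WT_MSC. Without WT_MSC_AML replicate 5 the list median was −0.55. With all libraries, none of the 13 passed for either genotype's co-culture difference.

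Most of the listed blood cell genes rose in both genotypes. Of 17 tested, 15 rose in KO_MSC_AML against KO_MSC (4.05% of all genes tested rose there). In WT_MSC_AML against WT_MSC, 15 rose (0.842% of all genes tested rose there). Their median difference was 4.57 in KO and 4.90 in WT, and none had an unadjusted interaction p under 0.05. Ikzf1, which encodes the lymphoid factor Ikaros, stood at 0.701, 4.5 and 1.95 CPM in KO_MSC_AML and 0.0561, 0, 0 and 0.0546 CPM in KO_MSC. It stood at 3.01, 6.97, 2.32, 4.1 and 2.44 CPM in WT_MSC_AML and at 0 CPM in all 4 WT_MSC libraries. In AML cells it averaged 284 CPM. The 7 haematopoietic markers summed to 11.2 to 43.1 CPM in KO_MSC_AML, 0.164 to 1.23 CPM in KO_MSC, 19 to 76.5 CPM in WT_MSC_AML and 0.365 to 1.52 CPM in WT_MSC, and Ptprc and Spi1 were at 0 in all KO_MSC libraries.

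**Figure D4:**
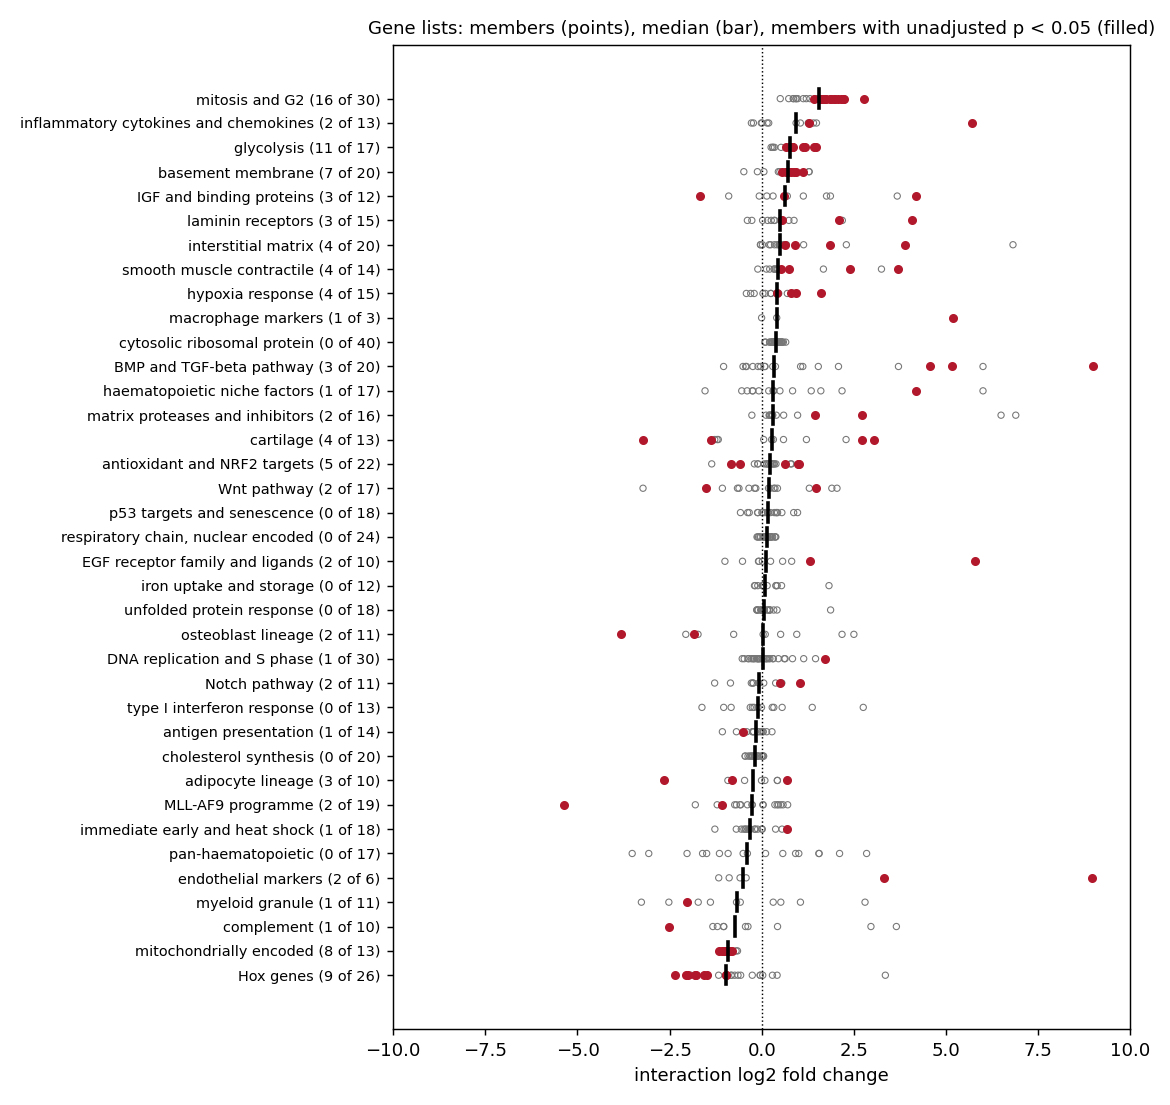
Interaction log2 fold change of each tested member (points) of 37 gene lists, ordered by list median (black bars), with members at an unadjusted p under 0.05 filled and their number of the number tested beside the name. Mitosis and G2 has the highest median (1.55) and Hox genes the lowest of those shown (−0.98), and the dotted line is the median of all genes (0.017).

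The other lists stood closer to the median of all genes or had few members with a small p. All 40 cytosolic ribosomal protein genes had a positive interaction, with a median of 0.40, but 0 of 40 had an unadjusted p under 0.05. By limma voom with sample quality weights 25 of 40 passed the threshold, all as positive (6.3% of all genes tested were). Without WT_MSC replicate 1 and KO_MSC replicate 3, 7 of 40 passed in edgeR, all as positive (2.5% of all genes tested were). The unfolded protein response, p53 targets and senescence, type I interferon, cholesterol synthesis, iron handling and nuclear-encoded respiratory chain lists had no member at an unadjusted p under 0.05, with medians between −0.18 and 0.17. Interstitial matrix genes had a median of 0.50 with 4 of 20 at an unadjusted p under 0.05, all positive (4.65% of all genes tested were). They were led by Thbs1, which encodes thrombospondin-1 (interaction 1.85 ± 0.58, and 1.07 without WT_MSC replicate 1, adjusted p = 0.283). Of 13 cartilage genes 4 had an unadjusted p under 0.05 (7.73% of all genes tested did). Among them Col2a1 and Comp were negative and Col11a1 and Matn3 positive. The interaction of Col11a1 was 2.72, and 0.87 without WT_MSC replicate 1 (adjusted p = 0.485). Within 1 sex-linked class per genotype that of Col11a1 was −0.10. Of 5 sex-linked genes all 5 had an unadjusted p under 0.05, Xist positive and the 4 Y-linked genes negative.

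How many genes were called depended on the libraries and the tool. Without WT_MSC replicate 1, 11 genes passed (0.0775% of 14192 tested), 10 positive (0.0705%) and 1 negative (0.00705%). These were Cit, Aspm, Kif18b, Ube2c, Ccna2, Cdc25c, Bub1, Gas2l3, Kif23 and Bub1b, which act in mitosis and cytokinesis and were positive, and Olr1, a receptor for oxidised lipoprotein, which was negative. They are named because the count is small, after their values were seen. Without KO_MSC replicate 3, 81 genes passed (0.57%), 49 positive (0.345%) and 32 negative (0.225%), none of them among those 11. Leaving out any other single library gave 0. Without both, 560 passed (3.96%), 354 positive (2.5%) and 206 negative (1.46%). That set holds all 11, 80 of the 81 and 24 of the 29 called by DESeq2 in the full set of libraries. Leaving out both also leaves KO_MSC_AML, in which all libraries held Xist, set against KO_MSC libraries that all held Ddx3y. Within 1 sex-linked class per genotype, 0 genes passed, 514 had an unadjusted p under 0.05, and 0 passed for KO_MSC_AML against KO_MSC.

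**Figure D5:**
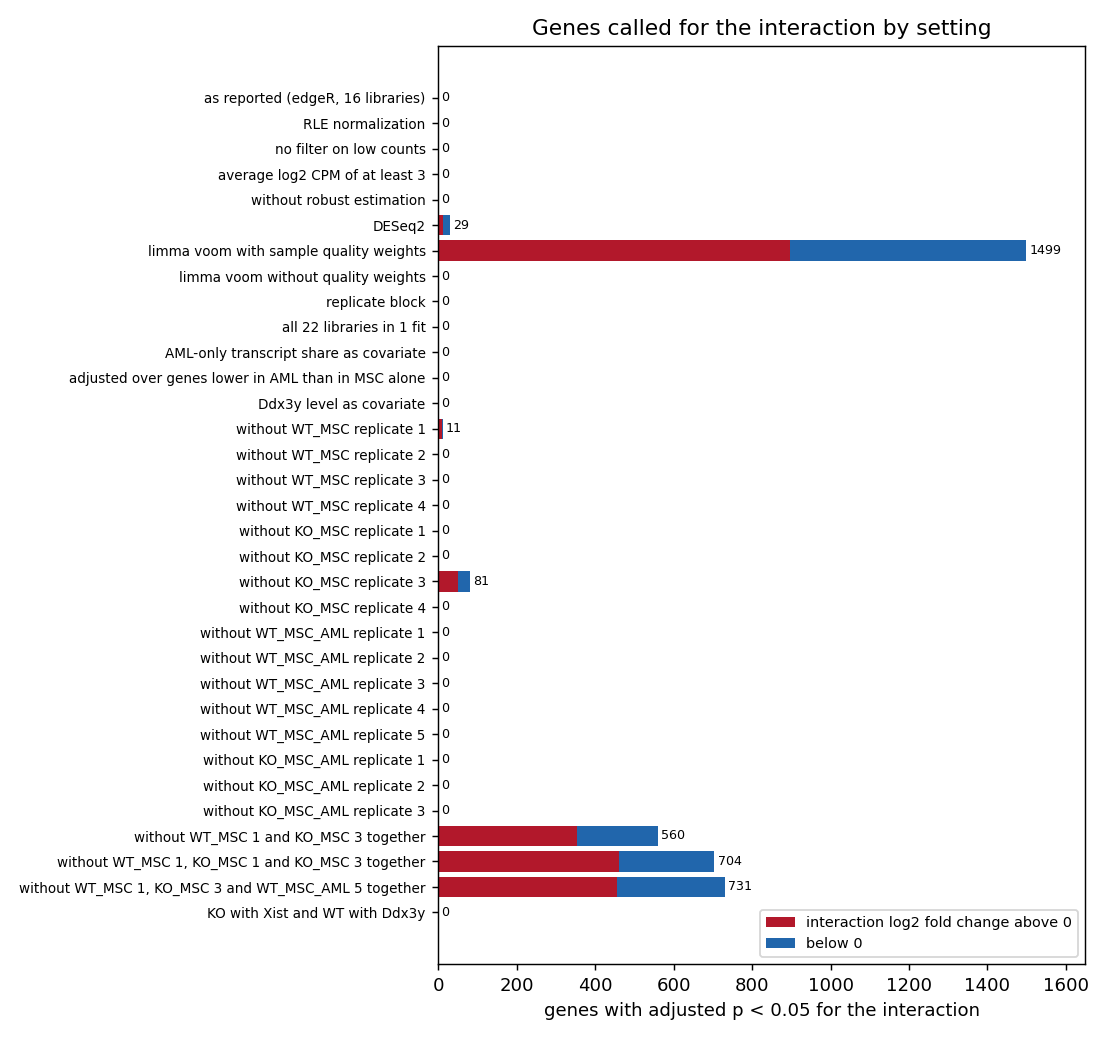
Genes with an adjusted p under 0.05 for the interaction (x axis, red positive and blue negative) under each setting (y axis). The count is 0 with all 16 libraries in edgeR, 29 in DESeq2, 1499 in limma voom with sample quality weights, and 560 to 731 where WT_MSC replicate 1 and KO_MSC replicate 3 were both left out.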

How the data were processed

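The MSC libraries were made from bulk populations of sorted cells with SMART-Seq v4 and Nextera XT and read single-end at 75 bp, per the labels' protocols. The protocols name more than 1 kind of sequencer without assigning libraries to them, and a sequencer batch was not tested. The deposited values are raw gene counts made by the authors with STAR and featureCounts, per the file headers. The submitters' processing notes list STAR 2.6.1d, FastQC 0.11.8, MultiQC 1.7 and GRCm38/mm10. No source used here gives the strand setting or annotation version, and reads of overlapping or antisense genes cannot be told apart. The table's other 22 per-sample columns, DESeq2-normalized counts per the file headers, were not used.

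The 16 MSC columns were matched to samples by title. Of 27179 rows, 1275 with a gene ID but no symbol (0.501 to 0.825% of counts) stayed in the tests and were not named. The counts were fitted in edgeR 4.0.16 (R 4.3.3) with TMM normalization, filterByExpr and the robust quasi-likelihood test, two-sided, 1 mean per group, adjusted p under 0.05 as threshold. Levels are TMM-scaled CPM, and their precision covers counting error and library spread together. DESeq2 1.42.0 and limma 3.58.1 were alternatives. Coordinates are RefSeq GRCm38.p6 (93% of rows matched). The model was tested on simulated data. That simulation had no outlying library and no mixed sex-linked classes, so it does not cover those features of these libraries. Libraries of 1 group all differed by more than sampling noise (chi-square per degree of freedom at least 4.26).

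Named genes are Lama4, the 10 genes per direction with the smallest p at an average log2 CPM of at least 3, and up to 2 per list by p. Others, such as Mki67, Aspm, Kif23, Ube2c, Nid1 and members named for passing in 1 genotype, were chosen after their values were seen. The members, lists and rule were chosen with earlier results of these data known. The main fit did not pair libraries by replicate number.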

Additional observations from a re-analysis of the deposited data

Results flagged for a closer look

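In groups of 4 or 5 libraries, a library was singled out where its gap to the nearest other library exceeded Dixon's 95% critical share of the group's range. Over 192 groups tested (62 genes, plus the AML and mitochondrial shares) 47 values met this, where chance gives about 1 in 20 groups. The genes were chosen partly because they differed, and no explanation was tested.

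WT_MSC replicate 1 lay above the other WT_MSC libraries, whose range is in parentheses, for Il4ra at 172 CPM (82.5 to 87.8), Hoxc12 at 10 CPM (8.01 to 8.28), Slc2a1 at 65 CPM (25.8 to 32.2) and Igf1 at 33.5 CPM (0.815 to 0.951). It also lay above them for Lamb1 at 258 CPM (217 to 224), Itga6 at 3.08 CPM (0.183 to 0.634), Itga7 at 8.15 CPM (0.923 to 1.9) and Thbs1 at 21239 CPM (5361 to 5588). The same library was above the others for Timp3 at 3317 CPM (177 to 202), Egln3 at 12 CPM (3.71 to 4.72), P4ha1 at 374 CPM (186 to 207) and Grem1 at 109 CPM (1.59 to 3.1). It also lay above them for Eng at 317 CPM (4.32 to 5.27), Col11a1 at 341 CPM (28.1 to 31.9), Hoxd8 at 12.1 CPM (3.64 to 4.87) and Ereg at 85.2 CPM (0.38 to 0.669). The same library was above the others for Errfi1 at 356 CPM (109 to 126) and Olr1 at 3.27 CPM (0 to 0.0396). It also lay below them for Msx2 at 13.5 CPM (23.3 to 24.8), Kdm5d at 0.806 CPM (33.2 to 36.9), Ddx3y at 0.806 CPM (50.1 to 56.5) and Kif23 at 3.22 CPM (25 to 28.5). The same library was below the others for Cdc25c at 1.33 CPM (9.99 to 11) and Bub1b at 2.37 CPM (28.6 to 32.1).

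KO_MSC replicate 3 lay above the other KO_MSC libraries, whose range is in parentheses, for Plau at 60.5 CPM (31.2 to 34), Slc16a3 at 46.7 CPM (26.9 to 30.3), Hoxc12 at 20.2 CPM (13.4 to 13.6) and Lmo7 at 36.3 CPM (19.8 to 22.1). It also lay above them for Tspan9 at 130.4 CPM (85.1 to 92.8) and Plin2 at 127 CPM (69.8 to 77).

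WT_MSC_AML replicate 5 lay above the other WT_MSC_AML libraries, whose range is in parentheses, for Lmo7 at 32.3 CPM (24.1 to 25.7), Thbs1 at 4057 CPM (2644 to 2986), CYTB at 6405 CPM (1778 to 2823) and ND2 at 2000.2 CPM (548 to 924). It also lay above them for Col11a1 at 43.3 CPM (26.2 to 29.6) and mitochondrially encoded counts at 4.99% (1.43 to 2.31%).

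WT_MSC_AML replicate 3 lay above the other WT_MSC_AML libraries, whose range is in parentheses, for Lcn2 at 65.8 CPM (19.9 to 29.2). It also lay below them for Tk1 at 13.5 CPM (20.7 to 23.2), Bub1 at 9.28 CPM (18.3 to 21.9) and Kif23 at 19.1 CPM (29.4 to 32.5).

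KO_MSC replicate 1 lay above the other KO_MSC libraries, whose range is in parentheses, for Lcn2 at 145 CPM (9.59 to 15.6), Grem1 at 51 CPM (23.9 to 27.3) and Alpl at 497 CPM (4.07 to 85.8).

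WT_MSC replicate 2 lay above the other WT_MSC libraries, whose range is in parentheses, for AML-only transcripts at 0.0371% (0 to 0.00453%). It also lay below them for Lama4 at 293 CPM (314 to 316).

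WT_MSC_AML replicate 2 lay above the other WT_MSC_AML libraries, whose range is in parentheses, for Vav1 at 6.63 CPM (1.05 to 2.37) and Igf1 at 0.536 CPM (0.27 to 0.346).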

How the results depend on the processing

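With all 16 libraries the interaction count was 0 under RLE factors, no filter, a log2 CPM averaging 3 or more, no robust estimation, the replicate block, all 22 libraries, the AML share or Ddx3y as covariate, adjustment over genes lower in AML, and limma voom without weights. DESeq2 gave 29 for the interaction, 1784 for the KO difference and 937 for the WT difference, and limma voom with sample quality weights 1499, 4937 and 2277. The KO count was 559 under voom without weights, 1511 with all 22 libraries, 102 with the AML share, 473 over genes lower in AML and 162 with Ddx3y. The WT count was 782, 5 and 0 under 22 libraries, the AML share and genes lower in AML, and 4 at a log2 CPM averaging 3 or more. Same-numbered libraries deviated together only in part, with correlations of −0.31 to 0.256 and 6 of 21 pairs over 0.1. Those pairs were among replicates 1 of WT_MSC, KO_MSC and KO_MSC_AML (0.176 to 0.206) and replicates 3 of the same groups (0.18 to 0.256). With the replicate block the counts were 382 in KO and 90 in WT. Leaving out 1 library gave 0 to 81 for the interaction, 100 to 2312 in KO and 90 to 363 in WT. Settings added after seeing the data gave 560, 704 and 731 for the interaction without WT_MSC 1 and KO_MSC 3, without KO_MSC 1 too, and without WT_MSC_AML 5 too, with 3199, 2723 and 3758 in KO, and 0 in KO within 1 sex-linked class. Of the values of named genes under these settings 203 newly passed the threshold and 13 reversed. The reversed ones were, with Ddx3y as covariate, Ikzf1 4.98, Igf1 −1.75, Cxcl12 0.30, Itga7 −0.16, Timp3 −2.24, Grem1 −1.68, Eng −3.35, Col11a1 −1.14, Ereg −2.99 and Errfi1 −0.23, and within 1 sex-linked class Alpl 1.58, Zfp423 0.073 and Col11a1 −0.10. The cause was not tested.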
